A study of Homo sapiens with 32 samples.

Results

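Scavenger receptors are surface and lysosomal proteins through which macrophages take up modified lipoproteins, haemoglobin, dying cells and microbes. The 8 receptor genes described here are OLR1, CD36, SCARB1, CD163, MARCO, MSR1, CD68 and STAB1. Their members were all probes that the platform annotation gives 1 of these symbols, which were 14 of the 24518 probes on the array, or 8 of its 16920 named genes. RNA came from THP-1, a human monocytic leukaemia line, so no donor differs between arrays. The cells of all 4 groups were kept overnight in low-serum medium and then exposed for 24 h to PBS as the control, to LPS at 100 ng/ml, to TGFβ1 at 1 ng/ml, or to both LPS at 100 ng/ml and TGFβ1 at 1 ng/ml (LPS+TGFβ1). Each group had 8 arrays, 32 in all. The series asked what follows when the LPS receptor TLR4 and the TGFβ pathway are active together.

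LPS is a bacterial cell wall component that TLR4 senses, with NF-kB and AP-1 among the transcription factors activated. TGFβ1 signals through receptor kinases and SMAD proteins. OLR1, also called LOX-1, is a lectin-like receptor for oxidised low-density lipoprotein (LDL). CD36 also binds oxidised LDL and takes up long-chain fatty acids, and SCARB1, or SR-BI, is the receptor for high-density lipoprotein. CD163 takes up complexes of haemoglobin with haptoglobin. MARCO and MSR1 are class A receptors with collagen-like stems that bind bacteria, particles and modified LDL. CD68 is a glycoprotein of late endosomes and lysosomes that is used as a macrophage marker, and STAB1, stabilin-1, clears modified lipoproteins and extracellular proteins.

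The values were deposited intensities on a linear scale. A probe was taken as above background on an array where it lay more than 3 SDs over the mode of the dim intensities, a threshold that lay between 24.7 and 55.7 and left 12172 to 13537 probes per array. The 32 arrays parted into 2 sets, of 14 and 18 arrays, by the sign of the leading component of what the group means leave over, computed without the receptor probes, which carried 42.3% of that variance. Of the 8 arrays per treatment, 3 with PBS, 3 with TGFβ1, 4 with LPS and 4 with LPS+TGFβ1 were in set 1, and receptor levels differed between the sets, so values are also given by set. The arrays lay on 4 chips with 2 arrays of each treatment on each; chip 2 held set 1 alone, chip 3 held set 2 alone, and chips 1 and 4 held both. The position labels put each treatment at positions of its own except that 4 LPS+TGFβ1 arrays carry the labels of TGFβ1 arrays, so the positions of these 8 arrays are in doubt, and position cannot be told apart from treatment. The labels do not say that arrays came from separate cultures, so p-values measure only how far these arrays varied, and that spread may be technical. The 9 measured monocytic markers were above background on all 8 arrays of every group, and their summed intensity ran from 8922 to 26587 with PBS and from 50779 to 68961 with LPS. Of the 4 T-cell and 4 epithelial markers at least 3 were below background on every array of each group, and both measured erythroid markers were below it on every array. No list of another lineage had more than 1 marker above background on all 8 arrays of a group. In a culture measured as a whole, fewer cells with a transcript and less transcript per cell cannot be told apart.

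OLR1, CD36, SCARB1 and CD68 were well measured in at least 1 treatment, CD163 and MARCO were dim, and MSR1 and STAB1 stayed at background. Of the 14 probes, 11 passed the filter that left out the dimmest 25%, and each of these 11 also passed it without the arrays of its brightest group. The other 3, of CD36, MSR1 and STAB1, were below background on all 32 arrays and were not tested. Among the 11 tested probes, LPS raised 7 and lowered 0 against PBS, where 20.9% of all probes tested were higher and 21% lower by limma at an adjusted p under 0.05. TGFβ1 raised 4 and lowered 0 against PBS, with 7.54% of all probes higher and 5.7% lower. LPS+TGFβ1 raised 7 and lowered 0 against PBS, with 18% of all probes higher and 21.9% lower. Against LPS alone, LPS+TGFβ1 had 1 probe higher and 3 lower, with 8.19% and 10.1% of all probes. Against TGFβ1 alone it had 5 higher and 0 lower, with 14.9% and 16.5% of all probes. The median log2 change of the 11 probes was 0.75 with LPS, 0.33 with TGFβ1 and 0.62 with both against PBS, where the median of all tested probes was 0.05, -0.04 and -0.04. These comparisons share arrays, so they are not independent of each other, and probes of 1 gene measure transcripts of that gene. At an unadjusted p under 0.05, limma also had 0 receptor probes lower in LPS, TGFβ1 and LPS+TGFβ1 against PBS and in LPS+TGFβ1 against TGFβ1.

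OLR1 had the largest response, and it was to TGFβ1. Its intensity ran from 1.07 to 49.6 on the PBS arrays, with a median of 34.3 and 1 of 8 above background. With LPS it ran from 64.6 to 122.9 with a median of 77.3, and all 8 arrays were above background. With TGFβ1 it ran from 603 to 3838, with a median of 3413. LPS+TGFβ1 gave 2132 to 5752, with a median of 3841. The PBS, LPS and TGFβ1 arrays did not overlap, while the LPS+TGFβ1 arrays overlapped those of TGFβ1. On the log2(intensity + 50) scale, OLR1 rose with TGFβ1 by 4.63 ± 0.34 (SE, limma adjusted p = 1.04e-12), a fitted value whose size depends on the offset of 50, since 7 of 8 PBS arrays were below background. Added to LPS, where all arrays were above background, TGFβ1 raised it by 4.79 ± 0.34 (adjusted p = 5.84e-13). Both agents together gave 5.57 ± 0.34 over PBS (adjusted p = 1.81e-15).

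The level that OLR1 reached with TGFβ1 differed between the sets. With TGFβ1 alone, set 1 arrays lay between 603 and 632 and set 2 arrays between 3277 and 3838. With LPS+TGFβ1 they lay between 2132 and 2672 in set 1 and between 5009 and 5752 in set 2. Within each set, then, every LPS+TGFβ1 array was above every TGFβ1 array. With PBS, 0 of 3 set 1 arrays and 1 of 5 set 2 arrays were above background, so no rise over PBS is given by set. The further rise on adding LPS to TGFβ1 was 1.93 ± 0.10 log2 units in set 1 and 0.57 ± 0.08 in set 2. Over all arrays that rise was 0.94 ± 0.34 (adjusted p = 0.0315), and it missed the threshold without chip 1 (0.82, adjusted p = 0.135), without chip 2 (0.64, adjusted p = 0.137) and without replicate 1, 3 or 4. A fit of only the LPS+TGFβ1 and TGFβ1 arrays missed it as well (0.94 ± 0.43, limma adjusted p = 0.112). LPS against PBS gave 0.79 ± 0.34 and missed the threshold (adjusted p = 0.0621), although the 2 groups' arrays did not overlap. Fits with chips, replicate numbers or sets as blocks passed it (limma adjusted p = 0.0175, 0.00786 and 0.000267), though the last p-value can be too small, since the sets were drawn from these arrays. So did a fit of only these 2 groups (adjusted p = 6.81e-05). A larger offset, a common median and quantile normalization did not pass it. With most PBS arrays below background, its size depends on the offset, and an offset of 16 gave 1.24 (adjusted p = 0.00783).

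CD36 responded to LPS, with no detected change on adding TGFβ1. By its brighter probe, intensity was 233 to 349 with PBS, with a median of 273, and 1237 to 2101 with LPS, with a median of 1639. TGFβ1 arrays ran from 317 to 600 with a median of 419.6, and LPS+TGFβ1 arrays from 1283 to 2121 with a median of 1682. Every array with LPS, alone or with TGFβ1, was above every array without it, and the LPS and LPS+TGFβ1 arrays overlapped almost fully. LPS raised CD36 by 2.32 ± 0.14 log2 units by the brighter probe (limma adjusted p = 8.95e-16) and 2.33 ± 0.16 by the dimmer (adjusted p = 4.77e-14), about 5-fold. LPS+TGFβ1 against LPS gave 0.04 ± 0.14 (adjusted p = 0.849) and -0.01 ± 0.16 (adjusted p = 0.97). The rise with LPS was 1.78 ± 0.08 in set 1 and 2.77 ± 0.09 in set 2 by the brighter probe, and 1.64 ± 0.08 and 2.89 ± 0.07 by the dimmer.

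TGFβ1 alone raised CD36 over PBS by 0.52 ± 0.14 log2 units by the brighter probe (limma adjusted p = 0.00761) and 0.55 ± 0.16 by the dimmer (adjusted p = 0.018). Its arrays overlapped those of PBS by both probes. The change lay in set 2, at 0.77 ± 0.08 and 0.88 ± 0.07. In set 1 the values were 0.10 ± 0.09 and -0.02 ± 0.09. Without chip 3 both probes missed the threshold (adjusted p = 0.123 and 0.219), and without chip 4 as well (adjusted p = 0.0723 and 0.127). The third CD36 probe, assigned to another transcript record, was below background on all 32 arrays.

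**Figure D1:**
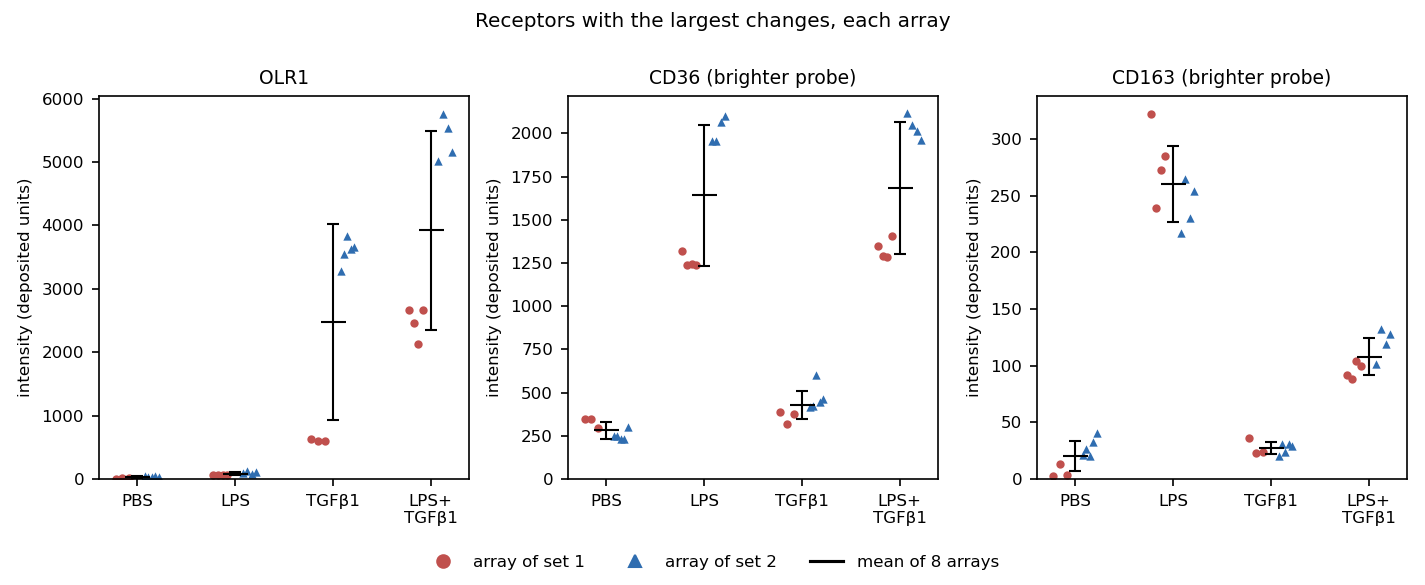
Deposited intensity (vertical axis, linear from 0) of OLR1, the brighter CD36 probe and the brighter CD163 probe on each of the 32 arrays by treatment, with circles for set 1 and triangles for set 2; the black bars are the mean and SD of 8 arrays. OLR1 is high on the TGFβ1 and LPS+TGFβ1 arrays, CD36 on the LPS and LPS+TGFβ1 arrays, and CD163 lies between 216.9 and 321.6 with LPS and between 88.1 and 132.2 with LPS+TGFβ1.

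SCARB1, the high-density lipoprotein receptor, was bright in every group and differed more between sets than between treatments. Its intensity ran from 524 to 1365 with PBS, with a median of 758, and from 536 to 1341 with LPS, with a median of 892. It ran from 881 to 1971 with TGFβ1, with a median of 1072, and from 537 to 1402 with LPS+TGFβ1, with a median of 923. Set 1 lay above set 2 in every group, and over all arrays the 4 treatments overlapped. TGFβ1 gave 0.54 ± 0.24 log2 units over PBS (limma adjusted p = 0.16), LPS -0.01 ± 0.24 (adjusted p = 0.983), and LPS+TGFβ1 against TGFβ1 -0.48 ± 0.24 (adjusted p = 0.136). In the fit without blocks, this probe passed in 0 of the 6 comparisons, and the interaction was -0.47 ± 0.34 (adjusted p = 0.503). Within a set the TGFβ1 arrays stood apart: in set 1 they lay between 1869 and 1971 and the other 3 groups between 1107 and 1402, and in set 2 they lay between 881 and 1123 and the others between 524 and 776. TGFβ1 differed from PBS by 0.61 ± 0.09 within set 1 and 0.49 ± 0.10 within set 2, and this passed in a fit with chips as blocks (adjusted p = 0.0244). In that fit LPS+TGFβ1 against TGFβ1 also passed (adjusted p = 0.024). The interaction, -0.53 in set 1 and -0.45 in set 2, missed there (adjusted p = 0.221) and passed when the sets were the blocks (adjusted p = 0.00151). The p-value with sets as blocks can be too small, since the sets were drawn from these arrays.

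CD163 rose with LPS, and less so when TGFβ1 was present. Its brighter probe ran from 2.42 to 40.7 with PBS, with a median of 20.9, and from 20.8 to 36.4 with TGFβ1, with a median of 26.5; none of these 16 arrays was above background. With LPS it ran from 216.9 to 321.6 with a median of 259, and with LPS+TGFβ1 from 88.1 to 132.2 with a median of 103. The LPS and LPS+TGFβ1 groups overlapped neither each other nor the groups without LPS. Against the lowest signal above background, the LPS level was at least 3.41-fold higher than with PBS (limma adjusted p = 8.21e-20). LPS+TGFβ1 was at least 1.74-fold higher than PBS (adjusted p = 6.89e-13) and at least 1.76-fold higher than TGFβ1 alone (adjusted p = 4.59e-11).

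On adding TGFβ1 to LPS, CD163 fell by 0.97 on the log2 scale (-0.97 ± 0.09, limma adjusted p = 5.06e-10), from a mean intensity of 260.4 ± 33.4 to 108.0 ± 16.4 (SD, n = 8 arrays each). Set 1 gave -1.17 ± 0.09 and set 2 -0.78 ± 0.09, and the change ranged from -1.10 to -0.76 within the 4 chips. The dimmer CD163 probe, assigned to another transcript record, moved the same way. It ran from 65.9 to 102.2 with LPS, above background on 8 of 8 arrays, and from 18.3 to 50.7 with LPS+TGFβ1, above background on 3 of 8. Its LPS level was at least 1.50-fold above PBS (adjusted p = 1.34e-10), and it was lower on adding TGFβ1 (adjusted p = 3.8e-06). The fitted change of -0.65 ± 0.10 has no exact size, since 5 of the 8 LPS+TGFβ1 arrays were below background. Any effect of TGFβ1 alone on CD163 could not be measured, since the PBS and TGFβ1 arrays were all below background.

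MARCO, a class A receptor for bacteria and particles, also rose with LPS and was at background when TGFβ1 was added, but its LPS arrays were high in set 1 and not in set 2. Its intensity ran from 11.2 to 47.6 with PBS, with a median of 33.8 and 1 of 8 arrays above background. With LPS it ran from 38.2 to 156.9 with a median of 91.7, and 4 of 8 arrays were above background. It ran from 2.73 to 40.9 with TGFβ1 and from 15.9 to 28.2 with LPS+TGFβ1, where 2 and 0 of 8 arrays were above background. The LPS arrays of set 1 lay between 134.7 and 156.9, above every other array, and those of set 2 lay between 38.2 and 48.7, within the range of PBS apart from the highest. Over all arrays LPS gave 0.75 ± 0.16 log2 units over PBS (limma adjusted p = 0.000311). The 4 LPS arrays above background were those of set 1, and 0 of the 4 in set 2 were, so no change is given by set. LPS+TGFβ1 was at least 1.51-fold lower than LPS (adjusted p = 9.7e-05), a bound over all 8 LPS arrays. It rests on the 4 LPS arrays of set 1, since in set 2 both groups were below background and no fall was measured there.

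MSR1, the other class A receptor, was not well above background. Its 3 probes ran from -11.0 to 53.2 over all arrays, and 1 array of 32, with TGFβ1, was above background by 1 of the probes. Neither of its 2 tested probes passed in any of the 6 comparisons.

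**Figure D2:**
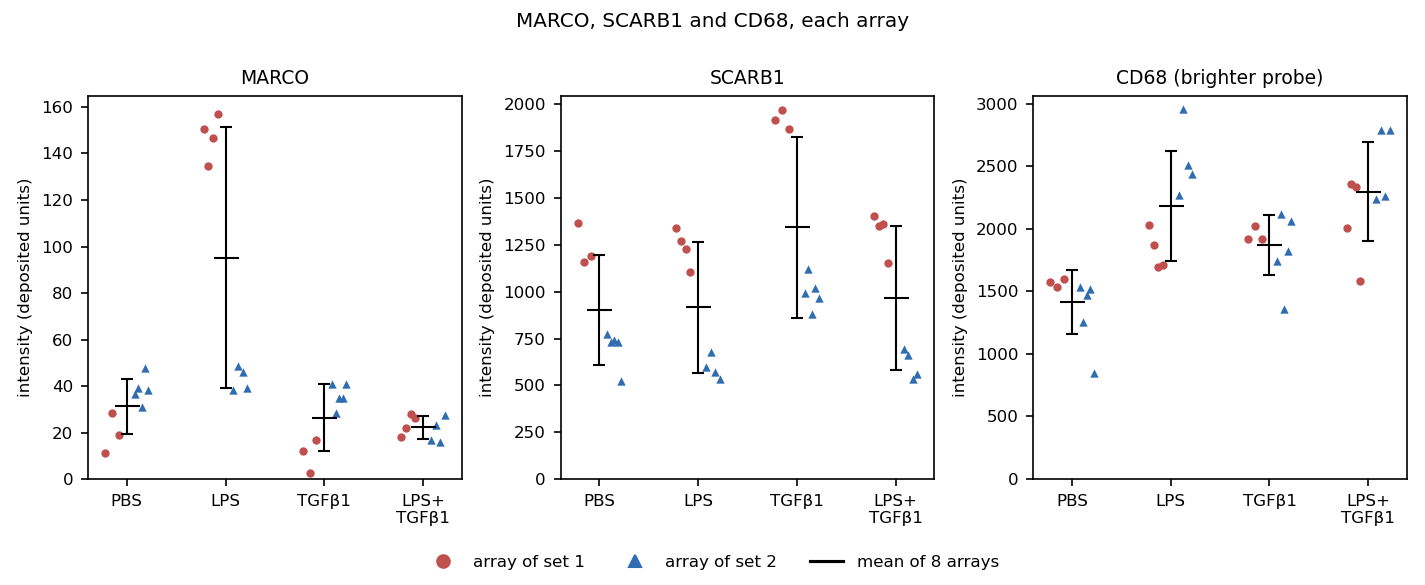
Deposited intensity (vertical axis, linear from 0) of MARCO, SCARB1 and the brighter CD68 probe on each array by treatment, with circles for set 1 and triangles for set 2; the black bars are the mean and SD of 8 arrays. The 4 high MARCO arrays are the LPS arrays of set 1, SCARB1 is higher in set 1 than in set 2 in each group, and the CD68 arrays of LPS lie above those of PBS.

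The effect of LPS differed with and without TGFβ1 for CD163 and MARCO. The interaction, which is what LPS did together with TGFβ1 less what it did alone, was called lower for 3 of the 11 probes and higher for 0, with 4.46% of all probes lower and 2.82% higher. At an unadjusted p under 0.05, 5 were lower and 0 higher, but all probes were not counted at that threshold, so no share stands beside these. It was -1.14 ± 0.13 log2 units for the brighter CD163 probe (limma adjusted p = 1.75e-07), -0.70 ± 0.14 for the dimmer (adjusted p = 0.00075) and -0.81 ± 0.23 for MARCO (adjusted p = 0.0261). Since CD163 was below background without LPS, and most PBS arrays of MARCO and OLR1 were too, the sizes of their interactions depend on the offset of 50. The interaction of MARCO missed the threshold without each of the 4 chips in turn (adjusted p between 0.0659 and 0.137) and without replicate 1, 4 or 7. For OLR1 the interaction was 0.16 ± 0.48 (adjusted p = 0.915). For CD36 it was -0.48 ± 0.19 by the brighter probe and -0.56 ± 0.23 by the dimmer (both adjusted p = 0.149). For these probes set 1 gave -0.03 and 0.03 and set 2 gave -0.76 and -0.92, and a fit that took the sets as blocks passed both (adjusted p = 0.0387 and 0.0413). Since the sets were drawn from these arrays, these p-values can be too small.

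CD163 and MARCO were the receptors that LPS raised and that were lower when TGFβ1 was added, so their promoter windows are shown, from 250 bases before to 50 after the annotated start, as RefSeq gives them on GRCh38.p14. Such windows were found for 5 of the 8 genes. CD163 lies at chr12:7503728-7504027 on the minus strand and MARCO at chr2:118941944-118942243 on the plus strand. Both strands were searched for AP-1 (TGANTCA), a SMAD binding element (CAGAC), PU.1 (GAGGAA) and NF-kB, by its usual 10-letter consensus; none of these contains another. Matches are in capitals, and sequences run 5′ to 3′.
CD163: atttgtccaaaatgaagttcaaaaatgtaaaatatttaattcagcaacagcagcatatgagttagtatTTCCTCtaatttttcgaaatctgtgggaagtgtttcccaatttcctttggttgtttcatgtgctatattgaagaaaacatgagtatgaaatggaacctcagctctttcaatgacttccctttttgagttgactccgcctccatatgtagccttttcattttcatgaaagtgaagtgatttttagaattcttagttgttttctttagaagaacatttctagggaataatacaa
MARCO: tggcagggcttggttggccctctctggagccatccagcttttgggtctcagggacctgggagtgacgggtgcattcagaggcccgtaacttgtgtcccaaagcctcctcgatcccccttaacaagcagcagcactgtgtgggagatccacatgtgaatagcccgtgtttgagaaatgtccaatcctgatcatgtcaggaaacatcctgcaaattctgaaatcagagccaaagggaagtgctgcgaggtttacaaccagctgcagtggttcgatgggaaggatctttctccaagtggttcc
The CD163 window held 1 match, to the PU.1 letters on the opposite strand, whose first base was at -182 from the start, and the MARCO window held 0 of any of the 4. The CD68 window held 1 match each to AP-1, the SMAD element and PU.1, the STAB1 window held 1 each to PU.1 and NF-kB, and the 6 CD36 windows, some of which overlap, held 1 to AP-1 and 4 to PU.1, counted in each window. Of all 35116 windows of this length, 7.71% held the AP-1 letters, 45.3% the SMAD element, 27.9% PU.1 and 5.91% NF-kB. These are matches of letters in the reference, and binding was not measured.

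CD68, the lysosomal marker, was above background on every array and rose with LPS by both of its probes. Its brighter probe ran from 845 to 1602 with PBS, with a median of 1526, and from 1694 to 2954 with LPS, with a median of 2150.5. It ran from 1363 to 2122 with TGFβ1 and from 1579 to 2793 with LPS+TGFβ1, with medians of 1919 and 2299. LPS and PBS arrays did not overlap, and the other groups overlapped their neighbours. LPS gave 0.61 ± 0.13 log2 units over PBS (limma adjusted p = 0.000146), TGFβ1 0.40 ± 0.13 (adjusted p = 0.0275) and both agents 0.68 ± 0.13 (adjusted p = 3.32e-05). By the dimmer probe, which measures the same transcript record, the values were 0.51 ± 0.17 (adjusted p = 0.0167), 0.33 ± 0.17 (adjusted p = 0.248) and 0.62 ± 0.17 (adjusted p = 0.00352). The LPS change of the dimmer probe missed the threshold without chip 2 (adjusted p = 0.0501), chip 4 (0.0684), replicate 3 (0.0551) or replicate 8 (0.08). The probes differ on whether the change with TGFβ1 passes. For the brighter probe it missed the threshold without chip 1, 2 or 4 (limma adjusted p = 0.0822, 0.0799 and 0.133). It also missed without replicate 3 (adjusted p = 0.0606), replicate 5 (0.082) or replicate 8 of every group (0.28, adjusted p = 0.122). The LPS change by the brighter probe was 0.21 ± 0.11 in set 1 and 0.94 ± 0.15 in set 2.

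STAB1 ran from -10.3 to 37.6 over all arrays and was below background on each of them. Its LPS arrays, at 17.7 to 37.6, lay mostly above the PBS arrays, at -6.88 to 28.3, but a difference below background was not measurable on these arrays.

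**Figure D3:**
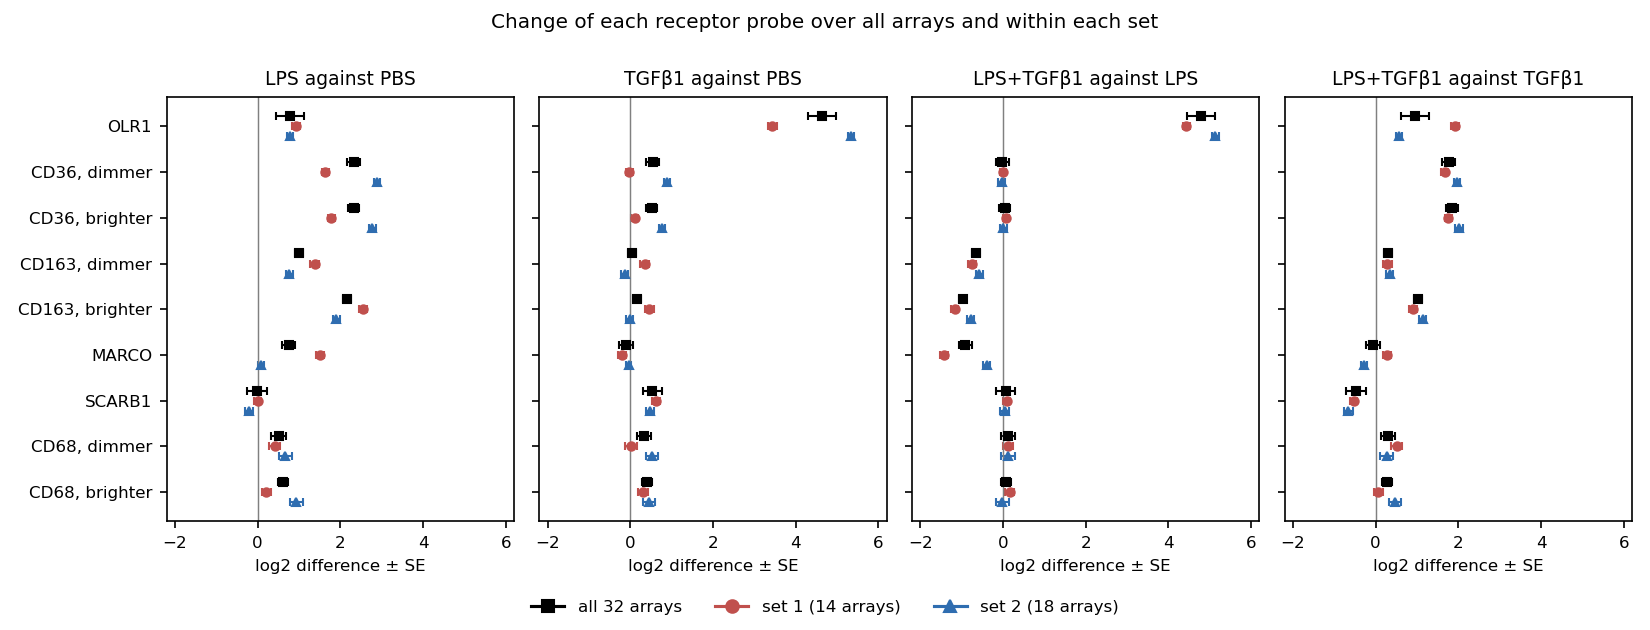
Log2 difference with its standard error (horizontal axis) of 9 receptor probes in 4 comparisons, over all 32 arrays (squares), within set 1 (circles) and within set 2 (triangles). OLR1 moves far to the right in both comparisons that add TGFβ1, CD36 in those that add LPS, and the sets differ for OLR1, CD36, CD163 and MARCO; values of groups at background are fitted values and no folds.

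Genes whose log2 values followed a receptor over the 32 arrays were ranked by the root mean square difference after each probe was centred on its own mean. The probes nearest to OLR1 were those of C3, a complement component, at 0.87, RGS16 at 0.905 and VASH1 at 0.91 log2 units, against an OLR1 span of 5.57 between group means. CD36 was followed closely by both probes of CASP1, the protease that matures interleukin-1β, at 0.20 and 0.21 for the dimmer CD36 probe and 0.243 and 0.225 for the brighter, whose group means spanned 2.36. TBXAS1 was the next for the dimmer probe and NFKBIE for the brighter, at 0.25 and 0.26. The brighter CD163 probe was nearest to PIM3 at 0.25, CYP27A1, a sterol hydroxylase, at 0.30 and GAS7 at 0.30. The dimmer one was nearest to HCAR3, MITF and SH3BP2, at 0.17 to 0.18. To give the scale, 1% of all tested probes lay within 2.04 of OLR1, 0.51 of the dimmer CD36 probe and 0.49 of the brighter CD163 probe. The named probes were picked as the nearest, so they lie within these limits by choice.

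Among 17 other scavenger receptors, 10 were bright enough to be tested. LPS raised 5 and lowered 1 of these against PBS, against 20.9% and 21% of all probes, and TGFβ1 raised 3 and lowered 2, against 7.54% and 5.7%. LPS+TGFβ1 had 0 higher and 2 lower against LPS by limma, against 8.19% and 10.1% of all probes. By an unadjusted p under 0.05 it had 0 higher and 4 lower, and all probes were not counted at that threshold. CXCL16, which is both a chemokine and a receptor for oxidised lipoproteins, rose with LPS from 56.9 ± 16.6 to 445 ± 35.9 in intensity (SD, n = 8 arrays each), or by 2.22 ± 0.08 log2 units (limma adjusted p = 4.44e-21). It rose by 0.76 ± 0.08 with TGFβ1 alone (adjusted p = 1.79e-08) and changed by -0.82 ± 0.08 on adding TGFβ1 to LPS (adjusted p = 3.9e-09). CXCL16 was thus raised by LPS and lower with both agents, as CD163 was. CD44, the hyaluronan receptor, rose by 1.28 ± 0.11 with LPS (adjusted p = 1.12e-11) and changed by -0.46 ± 0.11 with TGFβ1 (adjusted p = 0.00297). SCARB2, a lysosomal relative of CD36 and SCARB1, rose by 0.62 ± 0.12 with TGFβ1 (adjusted p = 0.000222). MEGF10, an engulfment receptor, was above background on 7 of 8 PBS arrays and on 0 of 24 others.

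Of 21 measured genes of lipid loading and cholesterol efflux, LPS raised 10 and lowered 3, where 20.9% of all probes were higher and 21% lower. TGFβ1 raised 8 and lowered 2, beside 7.54% and 5.7% of all probes. LPS+TGFβ1 had 4 higher and 4 lower against LPS, beside 8.19% and 10.1%. The list's median log2 change with TGFβ1 was 0.35, where that of all probes tested was -0.04. ACSL1, which activates long-chain fatty acids, rose with LPS from 218.5 ± 50.9 to 2648 ± 405 (log2 change 3.33 ± 0.10, limma adjusted p = 5.1e-24) and was lower with both agents, by -0.92 ± 0.10 (adjusted p = 1.06e-08). CYP27A1 rose by 1.97 ± 0.07 with LPS (adjusted p = 1.29e-22). The apolipoprotein genes APOC1 and APOE rose with TGFβ1, by 1.97 ± 0.17 (adjusted p = 6.1e-11) and 1.16 ± 0.15 (adjusted p = 2.18e-07). With LPS, APOC1 stood at 766 ± 87.0 against 523 ± 161 with PBS, and APOE at 232 ± 31.8 against 161 ± 28.5 (mean intensity ± SD). They were also higher with both agents than with LPS, by 1.38 ± 0.17 and 1.15 ± 0.15 (adjusted p = 1.56e-07 and 3.01e-07). Within sets 1 and 2 this was 1.29 and 1.48 for APOC1, and 1.76 and 0.54 for APOE. VLDLR, a receptor for very-low-density lipoprotein, fell with each agent, by 1.95 with LPS (-1.95 ± 0.19, adjusted p = 1.12e-10) and 0.93 with TGFβ1 (-0.93 ± 0.19, adjusted p = 0.000375). PLTP, a phospholipid transfer protein, fell by 0.86 with LPS (-0.86 ± 0.13, adjusted p = 1.16e-06).

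Of 9 tested genes that handle haemoglobin and iron, the cargo of CD163, some passed with each agent and some did not. LPS raised 4 and lowered 1 (all probes 20.9% and 21%), and 4 were not called with LPS. TGFβ1 raised 3 and lowered 2 (all probes 7.54% and 5.7%), and 4 were not called with TGFβ1. For all 9 genes LPS+TGFβ1 had 0 higher and 3 lower against LPS (all probes 8.19% and 10.1%) by limma, also at an unadjusted p under 0.05. HMOX1, the haem oxygenase, was below background on all PBS arrays at 29.0 ± 7.58, stood at 1468 ± 155 with LPS and was at least 16.7-fold higher there (limma adjusted p = 2.73e-24). With TGFβ1 it was at least 2.24-fold higher than with PBS (adjusted p = 1.87e-10). Adding TGFβ1 to LPS gave a change of -0.52 ± 0.12 (adjusted p = 0.0024), which was -0.12 within set 1 and -0.93 within set 2. SLC11A2, an iron importer, rose by 2.64 ± 0.09 with LPS (adjusted p = 3.78e-22). SLC40A1, the iron exporter ferroportin, was lower with LPS (-1.80 ± 0.07, adjusted p = 1.73e-21). This fitted change has no exact size, since SLC40A1 was above background on only 4 of 8 LPS arrays, against 8 of 8 with PBS. HP, which encodes haptoglobin, the partner of haemoglobin in the CD163 complex, was above background on 8 of 8 TGFβ1 arrays and 0 of 8 PBS arrays, so that it was at least 1.66-fold higher (adjusted p = 2.41e-07).

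**Figure D4:**
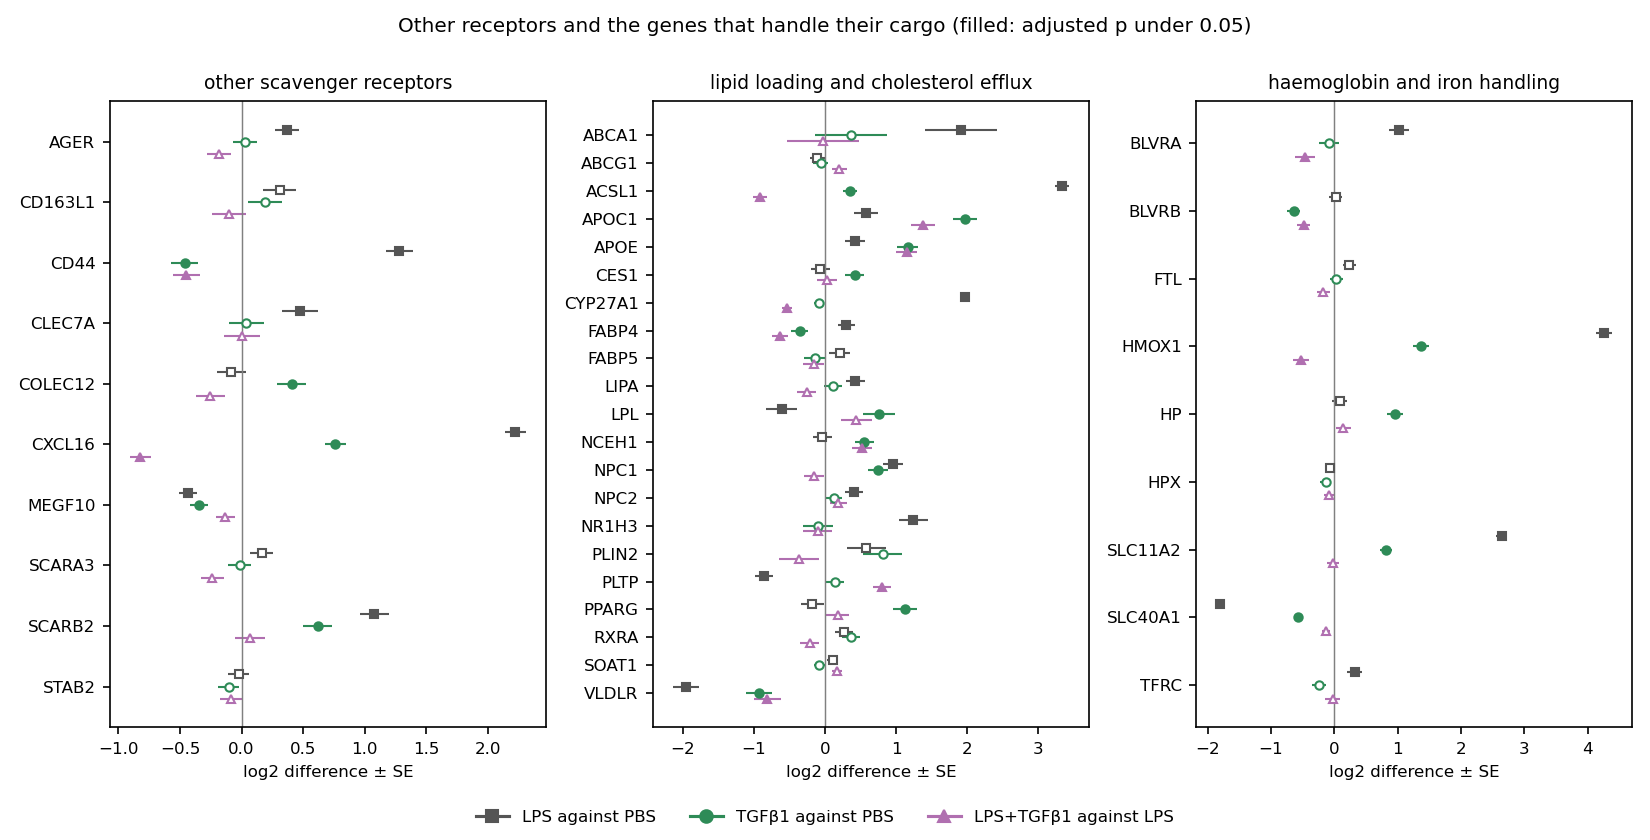
Fitted log2 difference with its standard error (horizontal axis, on log2(intensity + 50)) of each tested gene of 3 lists for LPS against PBS (squares), TGFβ1 against PBS (circles) and LPS+TGFβ1 against LPS (triangles), filled where the adjusted p was under 0.05. HMOX1 and ACSL1 lie farthest to the right for LPS and APOC1 for TGFβ1; HMOX1, HP, MEGF10, FABP4, FABP5, COLEC12, CLEC7A, SCARA3, STAB2 and HPX were below background on all arrays of 1 or more groups (SCARA3, STAB2 and HPX of all 4), where the fitted value is no fold.

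Genes of the proteases that shed CD163 and other receptors from the cell surface, and of regulators of these proteases, were measured as well. Of 5 such genes, LPS raised 3 and lowered 1 against PBS (all probes 20.9% and 21%), and TGFβ1 raised 1 and lowered 1 (all probes 7.54% and 5.7%). ADAM17, the main sheddase of CD163, rose by 1.08 ± 0.13 with LPS (limma adjusted p = 8.46e-09), and RHBDF2, which carries ADAM17 to the surface, rose by 2.72 ± 0.16 with LPS (adjusted p = 3.43e-16) and by 0.97 ± 0.16 with TGFβ1 (adjusted p = 1.63e-05). TIMP3, an inhibitor of ADAM17, fell by 1.81 with TGFβ1 (-1.81 ± 0.28, adjusted p = 6.66e-06). With LPS its change of -1.03 ± 0.28 (adjusted p = 0.00249) rested on set 2, at -2.12, while set 1 gave 0.14. RNA on arrays does not measure receptor protein on the cell or shed from it.

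Of 10 tested macrophage transcription factors, LPS raised 5 and lowered 4, while over all probes it raised 20.9% and lowered 21%. TGFβ1 raised 2 and lowered 0 (all probes 7.54% and 5.7%), and LPS+TGFβ1 had 0 higher and 1 lower against LPS (all probes 8.19% and 10.1%). At an unadjusted p under 0.05, limma had 3 higher and 0 lower with TGFβ1, and 1 higher and 2 lower for LPS+TGFβ1 against LPS. All probes were not counted at that threshold. PPARG, a nuclear receptor known to drive CD36 transcription, rose with TGFβ1 from 1075 ± 229.8 to 2402 ± 470.0, a log2 change of 1.13 ± 0.16 (limma adjusted p = 2.57e-06), and the sets gave 1.10 and 1.14. With both agents PPARG stood at 1067 ± 178 and was lower than with TGFβ1 alone (-1.13 ± 0.16, adjusted p = 9.35e-07), by -0.58 within set 1 and -1.54 within set 2. NR1H3, the oxysterol receptor LXRα, rose by 1.24 ± 0.21 with LPS (adjusted p = 8.11e-06), or 0.27 within set 1 and 2.15 within set 2. SPI1, which encodes PU.1, rose by 1.24 ± 0.15 (adjusted p = 2.37e-08). IRF8, a regulator of monocyte development, fell by 0.66 with LPS (-0.66 ± 0.06, adjusted p = 1.58e-10).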

How the data were processed

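Intensity values were used as the authors deposited them in the series' table, on a linear scale with 1 column per array. Per the submitters' processing notes BeadStudio 3.2 was used, without a stated role; how background and scale were corrected is not stated there. Array medians lay between 34.5 and 59.3, upper quartiles between 345 and 381, and the lowest value was -35.4, so scale factor and centring stay unknown. A second deposited table has 64 columns whose headings match no sample, and they were not used.

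Values were set to log2(intensity + 50), which understates the change of dim genes, and the lowest 25% of probes by mean were left out, which kept 18388 of 24518. Of all probes, 21826 had 1 gene symbol, 0 had several and 2692 had none. Differences were fitted with R 4.3.3 and limma 3.58.1 (lmFit, then eBayes, on group means of all 32 arrays, no covariate, two-sided), with Benjamini-Hochberg adjustment over all probes tested in each of 6 comparisons and a threshold of 0.05. Shares and counts of all probes are given at the adjusted p alone. Precision is limited by the number of arrays. Where all 8 arrays of a group were below background, a bound ("at least") replaces the fold: the bright group's mean log2 was set against the dim group's, in which each array took its dimmest signal over background or, if greater, the probe's value. Samples were grouped by their titles.

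All member probes are named; from each gene list, each gene by its brightest probe, the 2 largest rises and 2 largest falls of a comparison may be named. Members, lists and sets were chosen with earlier results of these data known. Because the sets were drawn from these arrays, errors within a set, and in fits that take the sets as blocks, can be too small. Alternatives were other offsets, filters, scalings, blocks, chips, sets and replicates left out.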

Additional observations from a re-analysis of the deposited data

Results flagged for a closer look

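The LPS effect on 3 probes differed with and without TGFβ1 by the interaction term of limma. The effect with TGFβ1 less that without it was -1.14 log2 units for the brighter CD163 probe, -0.70 for the dimmer CD163 probe and -0.81 for MARCO.

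Of 56 groups of 8 arrays tested for a single distant array, 3 held one; chance gives about 1 in 20. For the brighter CD68 probe, PBS replicate 8 stood at 845 against 1255 to 1602 on the other PBS arrays, a gap of 0.615 of the group's range. For the same probe, TGFβ1 replicate 6 stood at 1363 against 1742 to 2122, a gap of 0.553 of the range. STAB1 on LPS replicate 1 stood at 17.7 against 27.6 to 37.6, a gap of 0.529 of the range, with all 8 arrays below background.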

How the results depend on the processing

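Of 30 receptor calls over all arrays, 11 passed under each of the 29 alternatives: the LPS rises of both CD36 probes, with and without TGFβ1, the LPS rise of the brighter CD163 probe without it, the TGFβ1 rises of OLR1, with and without LPS, and the rises of these probes with both agents over PBS. Chips as a block, sets as a block, the replicate block, no filter, a larger offset and a common median kept all 30. Quantile normalization lost the OLR1 change of LPS+TGFβ1 against TGFβ1 (adjusted p = 0.0604), as did an offset of 16 (adjusted p = 0.0508) and a fit of only the groups compared (adjusted p = 0.112). Same-numbered arrays correlated over 0.1 in 44 of 48 pairs and not in the other 4 (range -0.20 to 0.72). Pairing would have needed every pair to pass, so it was not adopted, and 17 of 32 arrays correlated best with their own number. The replicate block gave 8, 5, 7, 5, 6 and 4 receptor probes for LPS, TGFβ1 and both against PBS, both against LPS, both against TGFβ1, and the interaction. The fit without it gave 7, 4, 7, 4, 5 and 3. Over all probes the replicate block had 9129, 3537, 8663, 5283, 7082 and 2342 calls. The fit without it had 7705, 2434, 7334, 3367, 5788 and 1339. SCARB1 with TGFβ1 was among the receptor probes gained (limma adjusted p = 3.36e-05). In the same order, leaving out 1 replicate number gave 6 to 7, 2 to 4, 7, 4, 4 to 6 and 2 to 3 receptor probes. Over all probes it gave 6937 to 7554, 1935 to 2284, 6635 to 7268, 2406 to 3421, 5131 to 5606 and 809 to 1158 calls.

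Within chip 1 the receptor counts were 4, 1, 4, 1, 2 and 0, and within chip 4 they were 3, 1, 4, 2, 3 and 0, each with 2 arrays per group. Over all probes there were 1613, 142, 1546, 90, 683 and 0 calls within chip 1. Within chip 4 there were 1792, 132, 1723, 80, 763 and 0. For the interaction, limma had 2 and 1 receptor probes at an unadjusted p under 0.05 within these chips, a threshold at which all probes were not counted. Without chip 1, 3 or 4 the receptor count for TGFβ1 was 2, 2 and 1, beside 1673, 1740 and 1908 calls over all probes. Both against LPS had 2 receptor probes with the lowest 50% left out, which removes the dimmer CD163 probe and MARCO, and 2911 calls over all probes. Both against TGFβ1 had 8 receptor probes within set 1 and 8 within set 2, beside 6504 and 6686 calls over all probes. The interaction had 1 receptor probe with the lowest 50% left out, 6 with the set as a block, 5 within set 1, 6 within set 2 and 5 within chip 2. Over all probes it had 1400, 2559, 1746, 3259 and 957 calls in these fits.

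Directions turned within set 1 and chip 2: the dimmer CD36 probe with TGFβ1 against PBS (-0.0191 and -0.0114), COLEC12 with LPS+TGFβ1 against PBS (0.0546 and 0.127) and TIMP3 with LPS against PBS (0.142 and 0.240). None of these turned values passed (limma adjusted p between 0.125 and 0.955), and COLEC12 was below background on all LPS+TGFβ1 arrays. The fitted value of MARCO with LPS+TGFβ1 against TGFβ1 also turned within set 1 (0.286). There every array of both groups was below background, so no direction was measured. The cause was not tested.

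Over all probes the interaction had 1339 calls, 559 without chip 3 and 2559 with the set as a block; LPS+TGFβ1 against LPS had 3367, 2046 and 5432; TGFβ1 against PBS had 2434, 1740 and 3701. Within chip 1 the 6 comparisons had between 0 and 1613. Of the LPS calls over all probes, 49.9% were higher, and 39.5% after quantile normalization.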
